A study of Mus musculus with 2 samples.

Results

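Fc gamma receptors bind the constant part of IgG, and the Sirpa-Cd47 pair tells a phagocyte to leave a cell alone. The 7 genes described here encode the 3 activating mouse receptors (Fcgr1, Fcgr3 and Fcgr4), the inhibitory receptor Fcgr2b, the signalling chain Fcer1g, the inhibitory receptor Sirpa and its ligand Cd47. They were chosen by name, and all 7 were found among the 17232 genes of the expression table. In mouse myeloid cells the activating receptors signal through the paired tyrosine motif of Fcer1g to Syk and start phagocytosis and killing of antibody-coated cells, whereas Fcgr2b carries an inhibitory motif that recruits the lipid phosphatase Inpp5d. Sirpa carries inhibitory motifs of its own, recruits the phosphatases Ptpn6 and Ptpn11 when it meets Cd47, and is displayed by macrophages, monocytes and most conventional dendritic cells (DCs) but not by the cross-presenting cDC1s.

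The samples were immune cells sorted from tumors and read by single-cell RNA sequencing, here from B16-OVA tumors, a mouse melanoma line that carries ovalbumin, taken on day 14 from Maoa WT and Maoa KO mice. Both groups were female mice of 8 to 12 weeks on the C57BL/6J background, and the KO mice carried a hypomorphic Maoa allele from a 129S strain (Maoa tm1Shih) in all tissues, backcrossed to C57BL/6J. In each group 10 tumors were combined, live cells positive for the leukocyte marker CD45.2 were sorted, and each group gave 1 library, so no difference below was tested across animals and every interval (95%) covers counting error only. The library labelled WT held 2392 cells with 28801253 unique molecular identifiers (UMIs, counted transcripts), with a median of 9887.5 each. The library labelled KO gave 2630 cells and 23702018 UMIs, with a median of 6945.5 each. Maoa itself did not separate them, since 6 cells of the former held 7 UMIs and 14 cells of the latter held 15, and the libraries are therefore called by their labels throughout. They shared 13 cell barcode sequences.

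Cells were grouped without use of the 7 genes, and the groups were named from marker genes, each name meaning only cells like that type. Macrophages (512 and 276 cells) included a C1q-high cluster (17 of 17 macrophage markers detected, 143 cells of the library labelled WT and 135 of the library labelled KO). Monocytes fell into a Ccl2-positive cluster, which showed 11 of 11 classical monocyte markers and also 15 of 17 macrophage markers (315 and 314 cells), and a cluster led by Hp. The latter was split into classical monocytes (74 and 133 cells) and nonclassical monocytes led by MHC class II genes, Ace, Eno3 and Treml4 (63 and 98 cells). The DC clusters were split into cDC1s led by Xcr1 (19 and 59 cells), mature DCs led by Fscn1 (25 and 42 cells) and Cd209a-positive cells (70 and 158 cells), one subcluster of which was led by macrophage as well as DC genes. Plasmacytoid DCs (pDCs, 48 and 70 cells), NK cells (189 and 268 cells), 4 T cell clusters (921 and 874 cells in all) and an unnamed cluster led by Acp5 and Cd160, with T and NK cell genes (117 and 240 cells), completed the 14 populations described. UMIs of the neutrophil genes S100a8 and S100a9 were found in 67.2% of T cells of the library labelled WT and in 4.12% of T cells of the library labelled KO, and in 76.8% and 12.3% of macrophages. The 7 neutrophil markers summed to 1213 and 395 CPM in macrophages, with 0 of 7 at 0 in either library. Of these sums Clec4d alone made up 616 and 357 CPM, and S100a8 and S100a9 together 544 and 11.3 CPM. Log2 ratios without cells that held S100a8 or S100a9 are given beside the main results in macrophage, monocyte, Cd209a-positive and cDC1 populations. Without such cells few of the library labelled WT were left, 22 of 70 Cd209a-positive cells, 15 of 143 C1q-high macrophages and 4 of 19 cDC1s.

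Fcgr4, the activating receptor for IgG2a and IgG2b, gave the largest log2 ratio between the libraries in nonclassical monocytes, of the values that rested on at least 100 UMIs in the 14 populations. There its level was 457 CPM (UMIs of the gene scaled to a common total of UMIs) in the library labelled WT, from 224 UMIs, and 98.9 CPM in the library labelled KO, from 70 UMIs. The log2 ratio (library labelled KO over library labelled WT, as throughout) was -2.20 (interval -2.62 to -1.82). Larger ratios rested on few UMIs, among them -4.28 for Fcgr4 in regulatory T cells (31 and 1 UMIs) and -3.12 for Fcgr1 in cDC1s (11 and 3 UMIs). Of 6 nonclassical marker genes, 5 had intervals that included 0, among them Ace (251 and 252 CPM) and Treml4 (186 and 181 CPM), and Cx3cr1 was higher in the library labelled KO, at 120.5 and 175 CPM (0.53, 0.08 to 1.01). Genes of other cells moved too. Ly6c2, a classical monocyte gene, was at 186 CPM in the library labelled WT and 666 CPM in the library labelled KO in the same population, and Cd209a, a DC gene, had 0 and 32 UMIs. Among cells gated as positive for the nonclassical genes and free of Ly6c2 UMIs (42 and 36 cells), Fcgr4 was at 616 and 185 CPM, a log2 ratio of -1.72. Cells without UMIs of S100a8 and S100a9 (30 and 89 cells) gave -2.02. After each cell was thinned to 4000 UMIs, 77.2% of 57 nonclassical monocytes (64.2 to 87.3) of the library labelled WT and 24.7% of 89 (16.2 to 35.0) of the library labelled KO held a UMI of Fcgr4, against 87.3% and 39.8% unthinned. In T cells, which should lack the gene, 1.66% and 1.49% held a UMI at 3600 UMIs, and median depths were 7534 and 6930.5 UMIs in nonclassical monocytes and 11101 and 5278.5 in T cells. Fewer cells of a kind and less RNA per cell cannot be told apart in the summed levels, and this share was lower in the library labelled KO like the level.

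Fcgr4 was also lower in the library labelled KO in the other monocytes and in C1q-high macrophages, at smaller sizes. Ccl2-positive monocytes were at 300.3 CPM in the library labelled WT and 159 CPM in the library labelled KO (log2 ratio -0.92, interval -1.07 to -0.77). C1q-high macrophages were at 252 and 195 CPM (-0.37, -0.53 to -0.21). The order of populations thus differed between the libraries, since nonclassical monocytes were the highest of the 14 populations in the library labelled WT and C1q-high macrophages in the library labelled KO. Classical monocytes were at 104 and 39.8 CPM (-1.38, -1.99 to -0.79), but their subclusters were unevenly filled, with a subcluster led by Lcn2 and S100a8 that held 47 cells of the library labelled WT and 2 of the library labelled KO. In the subcluster led by Spp1, which both libraries filled (19 and 55 cells), Fcgr4 was at 243 and 70.9 CPM (-1.77, -2.53 to -1.02). Without cells that held S100a8 or S100a9 the log2 ratio of Fcgr4 was -1.21 (-1.42 to -0.99) in Ccl2-positive monocytes, -0.82 (-1.17 to -0.44) in C1q-high macrophages and -0.83 (-1.73 to 0.21) in classical monocytes, where 14 and 35 UMIs were left.

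Fcgr1, the high-affinity receptor, was lower in the library labelled KO in 6 of 6 macrophage, monocyte, Cd209a-positive and cDC1 populations described, each by more than counting error. In the other 8, where it was low, its values were lower too, within counting error except in regulatory T cells (35 and 11 UMIs, 22 and 4 of them in cells that held UMIs of both T cell and myeloid genes). Its highest levels stood in Ccl2-positive monocytes, at 671 CPM in the library labelled WT and 530.0 CPM in the library labelled KO (log2 ratio -0.34, interval -0.43 to -0.25). C1q-high macrophages stood apart below these, at 314 and 279 CPM (-0.17, -0.31 to -0.03). Nonclassical monocytes, at 204 and 123 CPM (-0.73, -1.16 to -0.30), and classical monocytes, at 161 and 117 CPM (-0.46, -0.86 to -0.06), were lower still. In the library labelled WT Fcgr1 thus did not follow Fcgr4 in its order across monocytes, and in the library labelled KO the order was the same for both genes. Within classical monocytes the subclusters did not share a direction for Fcgr1, and the interval of each included 0. The Spp1-led one was at 121 and 168 CPM (0.44, -0.31 to 1.32). The Gm1673-led one (8 and 76 cells) was at 122 and 73.9 CPM (-0.79, -1.83 to 0.58). The Lcn2-led one held 73 and 5 UMIs (1.06, -0.74 to 2.22). Over all macrophages the log2 ratio was -0.57 (-0.66 to -0.48), and it was -0.35 when the macrophage clusters were given the same weight in both libraries. Macrophages without UMIs of S100a8 and S100a9 (119 and 242 cells) gave -0.999 for Fcgr1, -0.64 for Fcgr3, -0.35 for Fcgr4, -0.85 for Fcgr2b and 0.68 for Sirpa, but only 15 of the 119 cells and 115 of the 242 cells were C1q-high, so the mix of clusters moved with this selection. Within populations, the same selection gave -0.50 (-0.64 to -0.36) for Fcgr1 in Ccl2-positive monocytes, -0.69 (-1.25 to -0.11) in nonclassical monocytes and -1.20 (-1.63 to -0.73) in Cd209a-positive cells, whereas the intervals included 0 in C1q-high macrophages (-0.06, -0.42 to 0.36) and classical monocytes (-0.54, -1.11 to 0.10). In cDC1s it left 0 and 3 UMIs.

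Cd209a-positive DC-cluster cells pooled 3 subclusters, which the libraries filled unequally. Their Fcgr1 level was 178 CPM in the library labelled WT and 92.6 CPM in the library labelled KO (-0.94, -1.25 to -0.63). Within the subcluster led by Mgl2 (25 and 100 cells) it was 104 and 81.8 CPM (-0.35, -0.89 to 0.24). Within the subcluster led by the interferon-response genes Cxcl10 and Ifit3 (36 and 19 cells) it was 261 and 242 CPM (-0.10, -0.57 to 0.34). In the subcluster led by Cd7 (9 and 39 cells) Fcgr1 had 0 and 15 UMIs, the higher value being in the library labelled KO. Fcgr1 was thus highest in the interferon-response subcluster in both libraries, and none of the 3 alone showed a difference beyond counting error, with wide intervals. The part of the subclusters in the ratio of the whole population was not tested. Fcgr4 in the whole population was at 73.1 and 27.0 CPM (-1.43, -1.98 to -0.90), or -1.87 (-2.56 to -1.13) without cells that held S100a8 or S100a9. Its intervals included 0 in the first pair of subclusters (-0.90, -1.81 to 0.13, and -0.62, -1.53 to 0.15) and in the Cd7-led one, with 0 and 6 UMIs.

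**Figure D1:**
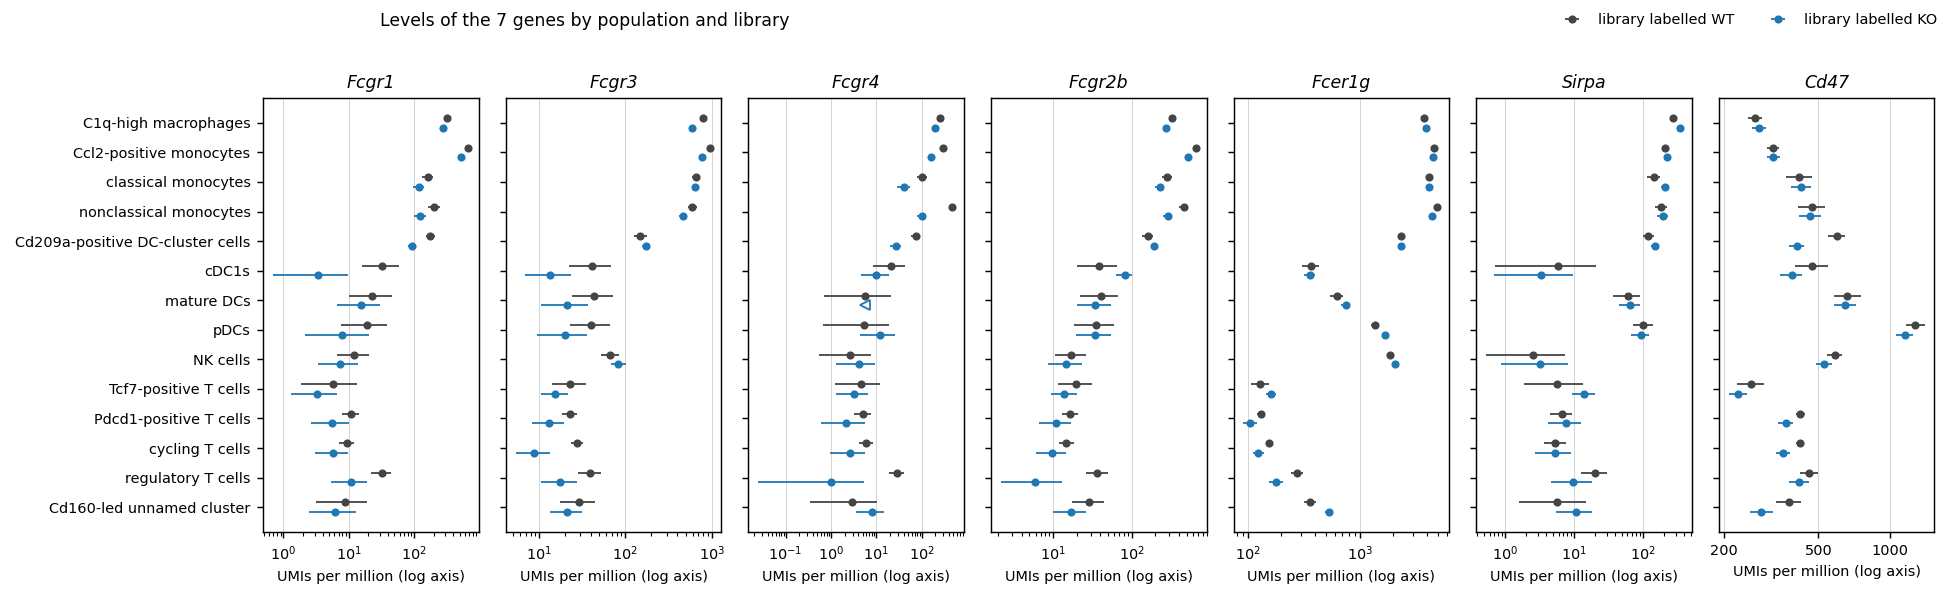
Level of each gene (CPM, log axes that differ between panels) in the 14 populations, with grey points for the library labelled WT, blue points for the library labelled KO and bars for the 95% counting interval; an open triangle marks the level of 3 UMIs where none was counted. The 4 receptors were high in macrophages and monocytes, Fcer1g also in NK cells and pDCs, and Cd47 in every population with its highest values in pDCs.

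The stretch upstream of the start of transcription is shown for Fcgr4 and Fcgr1, which were lower in the library labelled KO in macrophage, monocyte and Cd209a-positive populations (in cDC1s Fcgr4 had 7 and 9 UMIs and an interval that included 0), and for Fcer1g, which differed little there. Fcgr4, Fcgr2b, Fcgr3 and Fcer1g lie close together on chromosome 1 (GRCm38), Fcgr2b at 170958617 to 170976547 on the minus strand, Fcgr4 at 171018920 to 171029761 on the plus strand, Fcgr3 at 171051174 to 171064935 and Fcer1g at 171229572 to 171234365, both on the minus strand. Fcgr1 lies on chromosome 3 at 96282909 to 96293969 (minus strand), Sirpa on chromosome 2 at 129592835 to 129632228 (plus strand) and Cd47 on chromosome 16 at 49800533 to 49915010 (plus strand), and GENCODE annotates all 7 as protein coding. RefSeq promoter entries (GRCm38.p6) were found for 6 of the 7 genes. The 3 stretches below are read 5′ to 3′ on the gene's strand, end at the last base before the gene as GENCODE (M21) gives it (250, 244 and 234 bases), and cover chr3:96293970-96294219 (minus strand), chr1:171018676-171018919 (plus strand) and chr1:171234366-171234599 (minus strand). Capitals mark matches to GAGGAA, the core bound by the myeloid factor PU.1 (TTCCTC on the other strand), TTCNNNGAA, the interferon-gamma activated site bound by STAT factors, and the interferon-stimulated response element bound by IRF and STAT factors, searched as GAAA, any 2 bases and GAAA.
Fcgr1: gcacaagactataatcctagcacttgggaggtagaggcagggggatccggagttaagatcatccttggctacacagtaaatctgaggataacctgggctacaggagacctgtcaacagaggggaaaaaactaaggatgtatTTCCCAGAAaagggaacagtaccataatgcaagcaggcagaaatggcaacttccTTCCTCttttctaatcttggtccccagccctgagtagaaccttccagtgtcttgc
Fcgr4: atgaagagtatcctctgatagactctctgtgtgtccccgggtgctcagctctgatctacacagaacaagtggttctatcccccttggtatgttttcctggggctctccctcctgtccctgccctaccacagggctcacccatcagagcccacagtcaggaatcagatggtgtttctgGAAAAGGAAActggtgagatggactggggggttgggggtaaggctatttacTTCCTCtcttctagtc
Fcer1g: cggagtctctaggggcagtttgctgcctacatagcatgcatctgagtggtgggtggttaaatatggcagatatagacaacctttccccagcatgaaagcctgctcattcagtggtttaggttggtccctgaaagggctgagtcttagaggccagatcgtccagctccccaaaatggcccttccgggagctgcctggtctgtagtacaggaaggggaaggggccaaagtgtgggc
Fcgr1 held a TTCNNNGAA match from -109 to -101 relative to the GENCODE start (the last base printed is -1) and a TTCCTC match from -55 to -50. Fcgr4 held a match to the response element, GAAAAGGAAA, from -67 to -58 and a TTCCTC match from -16 to -11, and the Fcer1g stretch held none of the 3. Of 32851 RefSeq windows of 250 upstream bases, 23.3% held the first motif, 7.02% the second and 2.98% the third on either strand, and the matches are a description of letters only.

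Fcgr3, the low-affinity activating receptor of macrophages and NK cells, had the flattest profile of the 4 receptors across macrophages and monocytes. It was at 967 CPM in the library labelled WT and 779 CPM in the library labelled KO in Ccl2-positive monocytes (log2 ratio -0.31, interval -0.39 to -0.24). C1q-high macrophages were at 793 and 586 CPM (-0.44, -0.53 to -0.35). These neighbours overlapped in their ranges over the libraries, and neither difference passed 1.5-fold. In nonclassical monocytes the levels were 598 and 471 CPM (-0.35, -0.58 to -0.11), and in classical monocytes 660.4 and 632 CPM (-0.06, -0.25 to 0.12). Cd209a-positive DC-cluster cells, at 149 and 172 CPM (log2 ratio 0.20, -0.08 to 0.50), were the only myeloid population above 100 UMIs with a higher value in the library labelled KO. Without cells that held S100a8 or S100a9 the log2 ratio of Fcgr3 was -0.33 in Ccl2-positive monocytes, -0.47 in C1q-high macrophages, -0.44 in nonclassical monocytes, -0.10 in classical monocytes and 0.27 in Cd209a-positive cells, each on the same side of 0.

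Fcgr2b, the inhibitory receptor, was lower in the library labelled KO in monocytes and C1q-high macrophages and higher in cDC1s and over all DCs. Of the 14 populations Ccl2-positive monocytes held the highest levels, 650.2 CPM in the library labelled WT and 514 CPM in the library labelled KO (log2 ratio -0.34, interval -0.43 to -0.25), with C1q-high macrophages at 329 and 272 CPM (-0.28, -0.41 to -0.14). Nonclassical monocytes passed 1.5-fold, at 457 and 288 CPM (-0.67, -0.95 to -0.39), and classical monocytes were at 285 and 227 CPM (-0.33, -0.62 to -0.04). Cd209a-positive DC-cluster cells were at 159.8 and 195 CPM (0.28, 0.01 to 0.57), but their subclusters did not share a direction. The Mgl2-led one was at 216 and 215 CPM (-0.01, -0.37 to 0.38), the Cd7-led one at 208 and 142 CPM (-0.58, -1.32 to 0.28), and the interferon-response one was higher in the library labelled KO, at 112 and 178 CPM (0.67, 0.07 to 1.26). In cDC1s Fcgr2b was higher in the library labelled KO, at 38.3 CPM in the library labelled WT (13 UMIs, 19 cells) and 81.5 CPM in the library labelled KO (73 UMIs, 59 cells), which gave 1.05 (0.23 to 2.07). Over all DCs it was at 102 and 142 CPM (0.48, 0.26 to 0.71), and 38.3% of 133 DCs (30.1 to 47.2) and 52.5% of 280 DCs (46.5 to 58.5) held a UMI after thinning to 8500 UMIs, against 49.6% and 61.9% unthinned. These DCs pooled subclusters that the libraries filled unequally, with 25 of 139 and 100 of 320 cells in the Mgl2-led one. They also included a subcluster led by T cell genes, left out of the populations, at 48.9 and 109 CPM (1.13, 0.38 to 2.02). Over 10 alternative settings the log2 ratio over all DCs lay between 0.16 and 0.57. Without cells that held S100a8 or S100a9 the log2 ratio of Fcgr2b was -0.499 in Ccl2-positive monocytes, -0.62 in nonclassical monocytes and -0.18 in classical monocytes (-0.61 to 0.30). It was -0.10 in C1q-high macrophages (-0.46 to 0.31) and 0.78 in Cd209a-positive cells (0.29 to 1.36), and in cDC1s 3 and 69 UMIs were left (0.52, -0.88 to 3.04). Fcgr2b and Fcgr3 are alike in the sequence of their extracellular parts, and how reads that matched both were counted is not given in the sources used here.

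Fcer1g, the gamma chain shared by the activating receptors, differed far less between the libraries than they did in macrophages and monocytes. In macrophages its level was 3911 CPM in the library labelled WT and 3749 CPM in the library labelled KO (log2 ratio -0.06, interval -0.09 to -0.03), and in monocytes 4537 and 4367 CPM (-0.06, -0.08 to -0.03). It was found in 100% of macrophages (464 and 245 cells) and of monocytes (428 and 488 cells) after thinning, so the cells in which Fcgr4 was lower still held its chain. In the 6 macrophage, monocyte, Cd209a-positive and cDC1 populations described its log2 ratio lay between -0.17 and 0.05. Without cells that held S100a8 or S100a9 it was -0.16 (-0.25 to -0.06) in C1q-high macrophages, the one at 0.05 before, and -0.15 (-0.20 to -0.10) in Ccl2-positive monocytes. In cDC1s the same selection gave -0.66 (-1.15 to -0.08) in place of -0.03, on 34 and 303 UMIs in 4 and 56 cells. Below macrophages and monocytes the order ran through Cd209a-positive DC-cluster cells (2363 and 2343 CPM), NK cells (1859.6 and 2056 CPM) and pDCs (1374 and 1700.1 CPM), and each of these stood apart from its neighbours in the order. The unnamed Cd160-led cluster was at 361 and 535 CPM (0.57, 0.35 to 0.78), higher in the library labelled KO. Of the 9 myeloid reference genes given below, 7 were also higher and 2 lower there in the library labelled KO, relative to their myeloid level. Their part in this value was not tested, and without cells of mixed T cell and myeloid content the Fcer1g levels were 344 and 480 CPM. Regulatory T cells, at 276 and 180.5 CPM (-0.61, -0.88 to -0.34), were lower in the library labelled KO and were the only one of the 14 populations past 1.5-fold for Fcer1g. There 215 of 303 and 104 of 184 UMIs lay in cells that held UMIs of both T cell and myeloid genes, and without these cells the levels were 116 and 106 CPM.

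**Figure D2:**
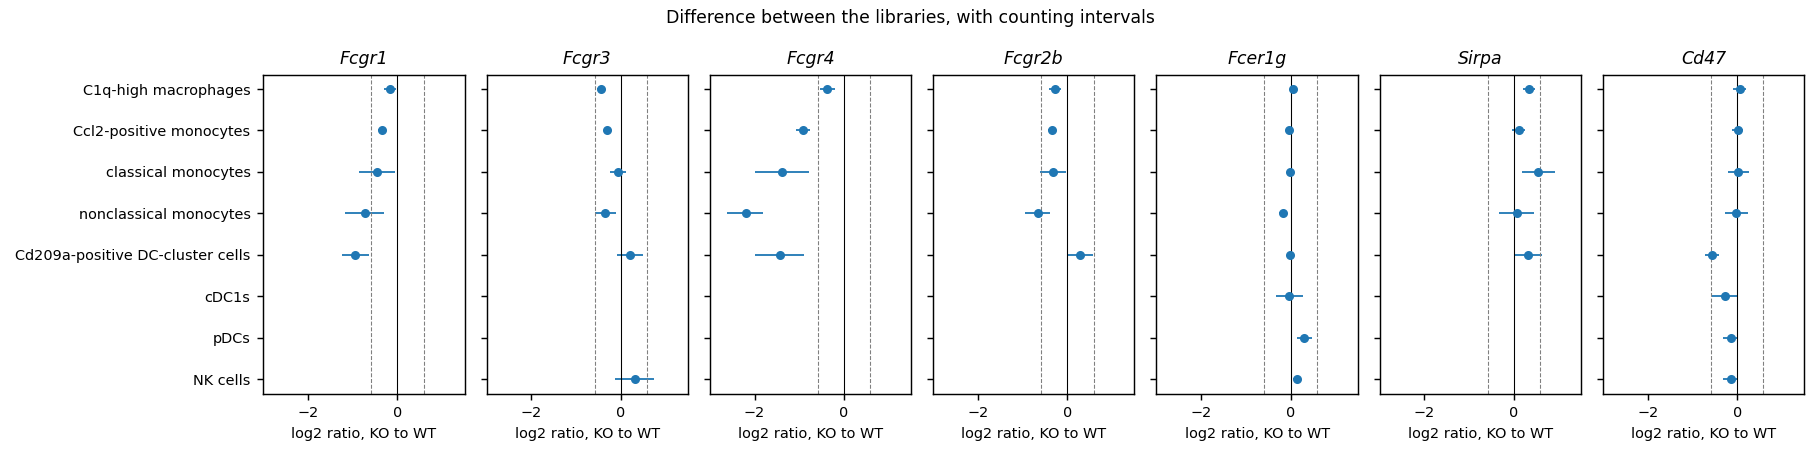
Log2 ratio of each gene between the libraries (library labelled KO over library labelled WT, 0.5 UMIs added to each count) in 8 populations, for genes that reached 100 UMIs in the 2 libraries together, with bars for the 95% counting interval and dashed lines at 1.5-fold. Fcgr4 lies left of 0 in each of its 5 populations, from -0.37 in C1q-high macrophages to -2.20 in nonclassical monocytes, while Fcer1g and Cd47 lie near 0 in most.

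Sirpa, the receptor of the Cd47 signal, was highest in C1q-high macrophages. In C1q-high macrophages it was at 275 CPM in the library labelled WT and 348 CPM in the library labelled KO (log2 ratio 0.34, interval 0.21 to 0.47). Over all macrophages it was at 231 and 289.5 CPM (0.33, 0.21 to 0.44), and this difference went to -0.02 when the macrophage clusters were given the same weight in both libraries. Of the macrophages, 143 of 512 in the library labelled WT and 135 of 276 in the library labelled KO were C1q-high. Classical monocytes were at 143 and 209.7 CPM (0.54, 0.18 to 0.93), nonclassical monocytes at 186 and 194 CPM (0.06, -0.33 to 0.46). The difference in C1q-high macrophages did not reach 1.5-fold, and was 0.65 (0.25 to 1.11) on the log2 scale without cells that held S100a8 or S100a9. The same selection gave 0.16 (-0.35 to 0.73) in classical and 0.61 (0.04 to 1.24) in nonclassical monocytes. Within the unevenly filled subclusters of classical monocytes, Sirpa gave 0.57 (-0.17 to 1.45) in the Spp1-led and 0.05 (-0.70 to 1.01) in the Gm1673-led one. The Lcn2-led one gave 0.78 (-1.75 to 2.19), on 56 and 3 UMIs.

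Among DCs, Sirpa separated the subsets in both libraries. Cd209a-positive DC-cluster cells were at 120.1 CPM in the library labelled WT and 149 CPM in the library labelled KO, pDCs at 102 and 93.1 CPM and mature DCs at 60.4 and 64.7 CPM. The Cd209a-positive cells that held no S100a8 or S100a9 were at 174.5 and 150.6 CPM, a log2 ratio of -0.22 (-0.65 to 0.25) in place of 0.30. cDC1s were at 5.89 and 3.35 CPM, from 2 and 3 UMIs, the level of NK cells (2.57 and 3.25 CPM) and T cells (7.16 and 9.08 CPM). A share of 5.26% of 19 and 5.88% of 51 cDC1s held a UMI of Sirpa after thinning to 10600 UMIs, against 54.4% of 68 and 72.5% of 138 Cd209a-positive DC-cluster cells at 8000 UMIs.

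Cd47, the ligand that most cells display, was found in every population. It was highest in pDCs, at 1283 CPM in the library labelled WT and 1155 CPM in the library labelled KO (log2 ratio -0.15, interval -0.33 to 0.03), and then in mature DCs at 662 and 649 CPM (-0.03, -0.27 to 0.22). These were the only 2 populations that stood apart at the top of the order, and from NK cells (585 and 527 CPM) downwards most neighbours overlapped. C1q-high macrophages, which carry Sirpa, were near the bottom of the Cd47 order, at 270.4 and 281 CPM (0.05, -0.09 to 0.20). Tcf7-positive T cells were lowest at 259.9 and 229 CPM (-0.19, -0.42 to 0.05). Cd209a-positive DC-cluster cells, at 598 and 405 CPM (-0.56, -0.72 to -0.41), showed the largest difference for Cd47 among the 14 populations, and none of these passed 1.5-fold. Without cells that held S100a8 or S100a9 that difference was -0.39 (-0.64 to -0.13). Within the unequally filled subclusters of this population Cd47 gave -0.32 (-0.58 to -0.05) in the Mgl2-led and -0.25 (-0.55 to 0.04) in the interferon-response one. The Cd7-led one gave -0.75 (-1.14 to -0.34), past 1.5-fold, on 72 and 192 UMIs.

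The members were set beside all genes that reached 100 UMIs in a class, both libraries summed. In macrophages 0 of 7 members were at least 1.5-fold lower and 0 of 7 higher in the library labelled KO, where 6.44% of 6757 genes were lower and 8.35% higher. The count of 0 changed with the setting, since Fcgr1 at -0.57 lay just inside 1.5-fold. Fcgr1 passed with marker gates (-0.68), without cells of mixed T cell and myeloid content (-0.70) and after subtracting the median of all genes (-0.67), Fcgr4 passed with the clusters at the same weight (-0.63), and Fcgr1, Fcgr3, Fcgr2b and Sirpa passed without cells that held S100a8 or S100a9. In monocytes 1 of 7, Fcgr4 (291 and 125 CPM, log2 ratio -1.22, interval -1.36 to -1.09), was lower and 0 higher, where 5.42% of 6420 genes were lower and 3.16% higher. In DCs 2 of 7 were lower, Fcgr1 (-0.99) and Fcgr4 (-1.34), and 0 higher, beside 6.61% and 2.64% of 5415 genes. Of the myeloid reference genes in the same DCs, C1qa (-1.13), C1qb (-1.26) and C1qc (-1.05) were lower, whereas Lyz2 (1.10), Apoe (0.54) and Csf1r (0.41) were higher, each beyond counting error. The 17 macrophage markers summed to 929 and 749.8 CPM there, with 0 at 0 in either library, and their part in the receptor values was not tested. In NK cells 0 of the 3 members with 100 UMIs passed the fold either way, beside 4.09% lower and 3.17% higher of 2615 genes. In T cells 4 of 7, the 4 receptors, were lower and 0 higher, beside 5.71% and 4.36% of 8322 genes. Without cells that held UMIs of both T cell and myeloid genes, Fcgr4 went from -1.58 to -0.37 and Fcgr2b from -0.71 to -0.39, while Fcgr1 went from -1.02 to -0.77, on 53 and 25 UMIs, and Fcgr3 from -1.02 to -0.91, so that Fcgr3 alone kept 100 UMIs and 1.5-fold. With 7 members or fewer these counts are a description, and the medians of the members' log2 ratios were -0.33 in macrophages, -0.35 in monocytes and -0.07 in DCs, beside 0.10, -0.03 and -0.07 over all genes of those classes.

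Make-up of the receptor pool was compared as the share of each gene among the UMIs of Fcgr1, Fcgr3, Fcgr4 and Fcgr2b, which does not depend on the depth of a cell. These UMIs are counts at the 3′ end without a scale for length or capture, so the shares compare populations and libraries, not genes. The share of the inhibitory receptor Fcgr2b in all macrophages was 24.3% of 14548 UMIs (23.6 to 25.0) in the library labelled WT and 24.7% of 5986 UMIs (23.6 to 25.8) in the library labelled KO. With the macrophage clusters given the same weight in both libraries, these shares became 25.0% and 28.6%. In all monocytes it was 25.1% of 12019 (24.3 to 25.9) and 25.7% of 8278 (24.7 to 26.6), and the same weighting left 25.1% and 25.7%. In C1q-high macrophages it was 19.5% and 20.4%. In Cd209a-positive DC-cluster cells the share was 28.5% of 536 UMIs (24.8 to 32.6) and 40.1% of 956 UMIs (36.9 to 43.2), but with the subclusters given the same weight in both libraries it was 38.1% and 37.8%. The share was 42.8% and 41.1% in the Mgl2-led, 67.9% and 55.8% in the Cd7-led and 17.4% and 26.04% in the interferon-response subcluster, with overlapping intervals in each. In cDC1s it was 28.9% of 45 UMIs (16.4 to 44.3) and 75.3% of 97 UMIs (65.5 to 83.5).

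Among monocytes the share of Fcgr4 was lower and that of Fcgr3 higher in the library labelled KO, and since the shares sum to the whole they do not move separately. Over all monocytes Fcgr4 made up 12.5% (11.9 to 13.1) and 7.72% (7.15 to 8.32), and Fcgr3 38.2% (37.4 to 39.1) and 43.1% (42.01 to 44.2). Fcgr4 made up 26.6% of 841 receptor UMIs (23.7 to 29.8) in nonclassical monocytes of the library labelled WT and 10.1% of 694 (7.95 to 12.6) in the library labelled KO, while the share of Fcgr3 was 34.8% and 48.0% in the same cells. Ccl2-positive monocytes showed 11.6% (10.99 to 12.2) and 8.01% (7.36 to 8.70) for Fcgr4. C1q-high macrophages, at 14.9% (13.99 to 15.9) and 14.6% (13.5 to 15.8), showed no difference beyond counting error in the Fcgr4 share.

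**Figure D3:**
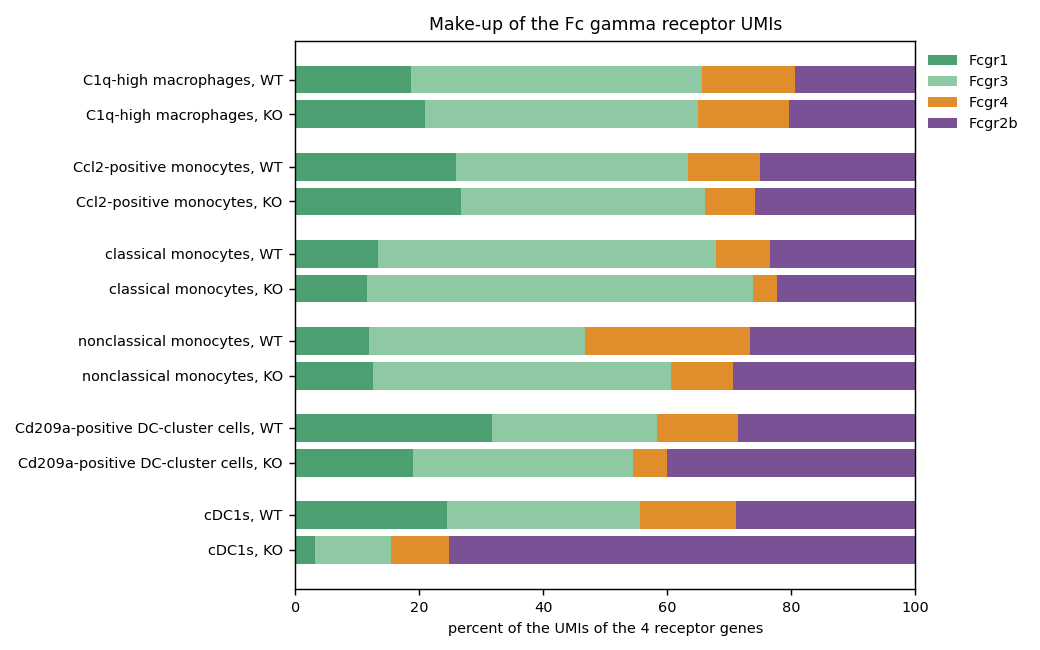
Share of each of the 4 receptor genes (percent of their summed UMIs) in 6 myeloid populations, with 1 bar per library. The orange Fcgr4 part is widest in nonclassical monocytes of the library labelled WT (26.6%) against 10.1% in the library labelled KO, and the purple Fcgr2b part is widest in cDC1s of the library labelled KO (75.3%).

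Single cells were then scored for how many of the 4 receptor genes they held after thinning. In Ccl2-positive monocytes (6800 UMIs per cell), 49.8% of 297 cells of the library labelled WT and 31.0% of 274 cells of the library labelled KO held all 4, with means of 3.41 and 3.09 receptor genes per cell. C1q-high macrophages (9000 UMIs) held all 4 in 64.8% of 128 and 42.7% of 124 cells. Nonclassical monocytes (4000 UMIs) showed 28.1% of 57 and 4.49% of 89 cells with all 4, and 0% and 4.49% with none. Because each population was thinned to its own depth, these shares compare the libraries within a population and not the populations.

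**Figure D4:**
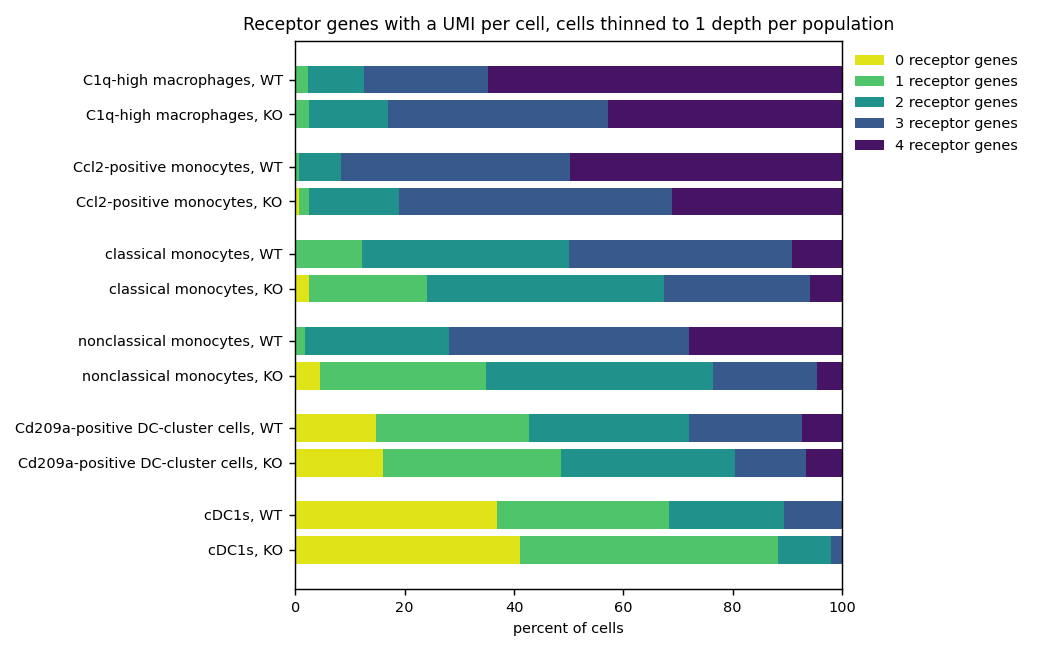
Percent of cells that held a UMI of 0, 1, 2, 3 or 4 of the receptor genes after thinning to 1 depth within each population, with 1 bar per library. The dark part, cells with all 4 genes, is wider for the library labelled WT in the 5 populations in which it occurs, for example 49.8% against 31.0% in Ccl2-positive monocytes.

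Signal in T and NK cells was read against 9 myeloid reference genes (Lyz2, Apoe, C1qa, C1qb, C1qc, Csf1r, Adgre1, Ms4a7 and Cd14), which T and NK cells should lack. These stood in T cells at 1.67 to 3.77% of their level in macrophages and monocytes in the library labelled WT and at 1.40 to 2.81% in the library labelled KO. Fcgr1 in T cells was at 2.13% and 1.52% of its myeloid level, Fcgr3 at 3.01% and 1.95%, Fcgr4 at 3.12% and 1.75% and Fcgr2b at 3.24% and 2.69%, all inside the range of the reference genes. Relative to the myeloid level, 9 of 9 reference genes were lower in T cells of the library labelled KO too, and their part in the difference of the receptors was not tested. Of T cells, 321 of 921 in the library labelled WT and 161 of 874 in the library labelled KO held UMIs of both T cell and myeloid genes. Without these cells the reference genes stood at 1.12 to 2.22% and 0.72 to 2.44%, and 5 of 9 were lower and 4 of 9 higher in the library labelled KO. Fcgr1 (1.77% and 1.51%) and Fcgr4 (1.57% and 2.05%) lay inside that range and were read as background. Fcgr2b lay above it, at 2.69% (2.14 to 3.35) and 2.79% (2.07 to 3.68), and so did Fcgr3 in the library labelled WT, at 2.34% (1.93 to 2.81), with intervals that reached into it. Fcer1g, at 3.36% (3.12 to 3.60) and 3.17% (2.91 to 3.43), stood above it in both libraries. In regulatory T cells the 31 UMIs of Fcgr4 in the library labelled WT sat in 7 of 154 cells, 29 of them in cells with such mixed content, and 1 UMI was found in 171 cells of the library labelled KO. With all T cells, Fcer1g, at 3.70% (3.54 to 3.87) and 3.38% (3.17 to 3.59), and Sirpa, at 3.31% (2.66 to 4.07) and 3.67% (2.83 to 4.66), lay inside the reference range in the library labelled WT and above it in the library labelled KO, and without cells of mixed content Sirpa was at 2.01% (1.29 to 2.99) and 3.69% (2.65 to 5.01), again inside and above. In the library labelled KO 15 of these 41 UMIs of Sirpa lay in 1 cell, without which it was at 2.36% (1.54 to 3.46), inside the range.

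NK cells held 2 of the 7 genes clearly above that background besides Cd47. Fcgr3, the only Fc gamma receptor that mouse NK cells are known to use, was at 66.9 CPM in the library labelled WT and 82.9 CPM in the library labelled KO (log2 ratio 0.31, interval -0.13 to 0.75), which was 7.58% (5.99 to 9.46) and 12.4% (10.1 to 15.03) of the myeloid level against at most 4.12% and 2.60% for a reference gene. After thinning to 3200 UMIs, 20.1% of 189 and 26.2% of 225 NK cells held a UMI of Fcgr3 (33.9% and 32.8% unthinned, at median depths of 4872 and 3977), and 8.17% of 906 and 4.62% of 736 T cells at 3600 UMIs. Fcer1g was at 44.5% and 50.1% of its myeloid level and in 98.4% and 98.2% of the thinned NK cells. Fcgr1 (14 and 9 UMIs), Fcgr4 (3 and 5 UMIs), Fcgr2b (20 and 18 UMIs) and Sirpa (3 and 4 UMIs) in NK cells had counting intervals that reached into the range of the reference genes, and a difference between the libraries was not detectable at this depth.

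**Figure D5:**
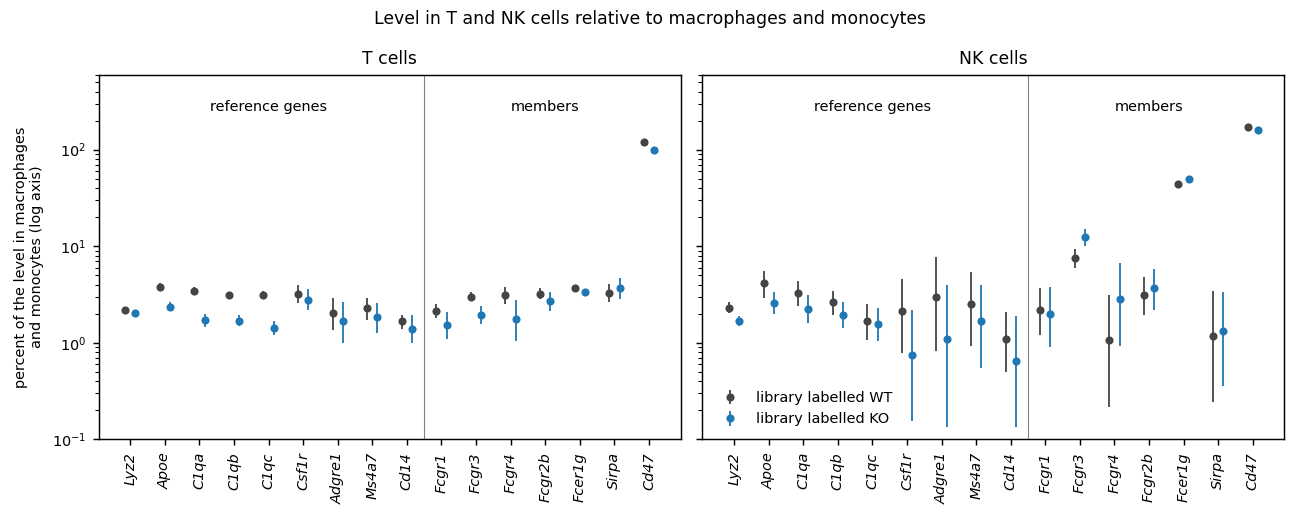
Level of 9 reference genes and the 7 members in T cells and NK cells, as percent of the level in macrophages and monocytes of the same library (log axis), with bars for the 95% counting interval. In T cells every member but Cd47 lies between 1.52% and 3.70%, near the reference genes, whereas in NK cells Fcgr3 (7.58% and 12.4%), Fcer1g (44.5% and 50.1%) and Cd47 stand above them.

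Other genes of the pathway were taken from lists and counted in all macrophages, whose mix of clusters differed between the libraries, against the 6.44% and 8.35% of all genes above. Of the kinases and signalling proteins downstream of the activating receptors, 16 of 16 had 100 UMIs, 1 was lower, Pik3ap1 (log2 ratio -0.63, -1.30 to -0.02), and 0 were higher, with a median log2 ratio of 0.01. The most abundant of them were Rac2, a small GTPase of phagocytosis (356 and 335 CPM), and the adaptor Lat2 (219 and 226 CPM). Of the inhibitory arm, 1 of 14 was lower and 2 were higher. The inhibitory receptor Lilrb4a was at 1015 CPM in the library labelled WT and 637 CPM in the library labelled KO (-0.67, -0.74 to -0.61), whereas Cd72, at 62.2 and 109.6 CPM (0.82, 0.62 to 1.01), and the sialic acid receptor Siglece, at 7.32 and 16.1 CPM (1.14, 0.58 to 1.71), were higher. Clec4a2, second in level in that list, was at 282 and 311 CPM (0.14, 0.03 to 0.24).

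A further list held adaptors related to Fcer1g, among them Tyrobp and Hcst, and receptors that pair with such adaptors. Of this list 8 of 12 had 100 UMIs, 4 were lower and 1 was higher, and the median log2 ratio was -0.58. Clec4n, a receptor for fungal sugars, was at 861 CPM in the library labelled WT and 339 CPM in the library labelled KO (-1.35, -1.43 to -1.26). Its relatives Clec4d (616 and 357 CPM, -0.79) and Clec4e (317 and 159 CPM, -0.99) and the amplifier of inflammation Trem1 (23.0 and 5.38 CPM, -2.07) were lower too. Clec4d is also among the neutrophil markers above, and S100a8 and S100a9 together were at 544 and 11.3 CPM in these macrophages. Ratios of this list without cells that held S100a8 or S100a9 are not given. Trem2, the lipid receptor of mature macrophages, was higher, at 234 and 401 CPM (0.78, 0.68 to 0.88). Of the adaptors, Tyrobp was at 2436 and 2277 CPM (-0.10, -0.13 to -0.06) and Hcst at 65.1 and 58.4 CPM (-0.16, -0.39 to 0.08). In monocytes Trem1 was the only one of 8 past 1.5-fold (26.1 and 16.8 CPM, -0.63, -1.04 to -0.23), and 0 were higher.

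Of the other Fc receptors 2 of 11 had 100 UMIs in macrophages, and both were higher in the library labelled KO. Fcgrt, the neonatal receptor that recycles IgG, was at 47.9 and 77.6 CPM (0.70, 0.47 to 0.93), and Fcrls at 19.6 and 84.7 CPM (2.11, 1.82 to 2.41). Of the Sirpa-Cd47 partners and related signals, 12 of 14 had 100 UMIs, 3 were lower and 0 higher. Thbs1, a secreted ligand of Cd47, was at 762 and 337 CPM (-1.18, -1.27 to -1.09), Cd24a at 68.9 and 41.98 CPM (-0.71, -0.98 to -0.46) and Pecam1 at 13.6 and 6.91 CPM (-0.96, -1.65 to -0.35). Calr, the prophagocytic signal calreticulin, was at 796 and 799.7 CPM (0.01, -0.06 to 0.07). Most macrophage reference genes were higher in the library labelled KO, with Apoe at 990.0 and 2695 CPM (1.44), C1qa at 1712 and 2660.2 CPM (0.64), C1qc at 1649 and 2712 CPM (0.72), Adgre1 at 118 and 198 CPM (0.74) and Ms4a7 at 311 and 491 CPM (0.66), and Cd14 was lower at 907 and 374 CPM (-1.28). Trem2, C1qa, C1qc and Ms4a7 were among the genes that led the C1q-high cluster. That cluster held 143 of 512 and 135 of 276 macrophages, and its part in these ratios was not tested.

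Across 28 profiles (14 populations in each library with at least 20 cells), the log2(CPM + 1) values of the 4 receptors correlated with Pearson r between 0.91 and 0.97, as a description over profiles that share libraries. Cd47 was unlike the rest, with r between -0.25 and 0.13 to the other 6 genes, and -0.19 to Fcgr1. Among 7030 genes with at least 500 UMIs, the profile most like Fcgr1 was that of Fcgr2b (0.97), then Sdcbp and Ifi204 (both 0.96). Fcgr3 was most like Sdcbp (0.96), Hk3 and Itgam (both 0.95), and Fcgr4 like AF251705, Cd93 and Fcgr2b (all 0.92). Fcgr2b was most like Ccl6, Cd300ld and Tgfbi (all 0.97). The adaptor Tyrobp (0.96), the kinase Fes (0.95) and Rnf130 (0.94) were most like Fcer1g, and Plekho1, Ctss (both 0.97) and the kinase Btk (0.96) most like Sirpa. For Cd47 the closest were Herpud1 (0.90), Irf8 (0.87) and Tspan13 (0.86).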

How the data were processed

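TIIs were profiled with the 10x Chromium 3′ V2 kit, and the authors deposited 1 table of natural log values (log of 1 plus UMIs scaled to 10000 per cell), made with Cell Ranger (mm10, per the labels; versions not given in the sources used here) from cells with at least 300 UMIs, 100 genes and at most 5% mitochondrial UMIs, filters from the study's methods. Whole UMIs were recovered as exp(value) minus 1 over the cell's smallest nonzero such value; 100% of values were whole within 0.01. Libraries were told apart by barcode suffix; depth per library is in the report. Seurat 5.3.0 (598 variable genes without the members, 13 PCs, resolution 0.8) gave 15 clusters, named from detected markers (at least 10% of cells, above the mean of clusters); no doublet caller was run, and cells holding at least 3 T cell and 5 myeloid UMIs (mixed cells) were left out as an alternative. The Hp-led and DC clusters were split again, and those subclusters pooled, after the data were seen; subclusters led by T cell or cycling genes were left out of the populations. 1 macrophage cluster is not reported here on its own, and its cells count among all macrophages. UMIs were summed over cells and scaled to CPM. Intervals are exact (Poisson for levels, Clopper-Pearson for shares, the binomial split of UMIs for log2 ratios, 0.5 UMIs added), and cover counting error only. With 1 library per group no test was made. A gene counted as past the fold at 1.5-fold with at least 100 UMIs. Each cell was thinned once at random to the 10th percentile of its population's UMIs, rounded down to a multiple of 100. Likeness used genes with at least 500 UMIs. The ratio and interval code was tested on simulated data. Named pathway genes were those of the lists past 1.5-fold in macrophages with an interval on 1 side of 0, or the 2 highest of a list; likeness is Pearson r. Members, lists and marker sets were chosen with earlier results of these data known. Alternatives changed the clustering, the cell filters, the weighting, the scale, the prior count, the thinning and the fold. Gene positions are from GENCODE M21.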

Additional observations from a re-analysis of the deposited data

Results flagged for a closer look

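The log2 ratio of Fcgr2b between the libraries (library labelled KO over library labelled WT) drew attention because it pointed in opposite directions in different cells. It was -0.67 in nonclassical monocytes, -2.53 in regulatory T cells and 1.05 in cDC1s. With 1 library per group the difference between these cell types was not tested. The regulatory T cell value rests on 40 and 6 UMIs, of which 24 and 4 lay in cells that held UMIs of both T cell and myeloid genes. The cDC1 value rests on 13 and 73 UMIs in 19 and 59 cells.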

How the results depend on the processing

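No paired analysis was possible because each group had 1 library, and for the same reason no replicate could be left out. Of 441 log2 ratios computed under alternative settings, 422 kept their sign, and 1 of those that did not had been past 1.5-fold, Fcgr1 in NK cells, which went from -0.69 to 0.47 with cells gated on markers, on 14 and 9 UMIs. In macrophages 83 of 84 kept their sign. The exception was Sirpa, which went from 0.33 to -0.015 with both clusters at the same weight. That weighting also gave -0.35 for Fcgr1, -0.38 for Fcgr3, -0.63 for Fcgr4, -0.13 for Fcgr2b and -0.14 for Fcer1g.
Macrophages at a clustering resolution of 0.4, which took in the Ccl2-positive cluster, gave -0.42 for Fcgr1, -0.39 for Fcgr3, -0.58 for Fcgr4 and -0.14 for Cd47, and 20 PCs gave -0.45, -0.40 and -0.56 for the first 3. Adding that cluster by hand, an alternative chosen after seeing the data, gave -0.42 for Fcgr1, -0.38 for Fcgr3, -0.57 for Fcgr4, -0.025 for Fcer1g and -0.14 for Cd47. Marker gates gave -0.68 for Fcgr1, -0.57 for Fcgr4, -0.10 for Fcer1g and -0.064 for Cd47. Leaving out mixed cells gave -0.70 for Fcgr1 and -0.10 for Fcer1g. The mean of per-cell CPM gave -0.35 for Fcgr2b, -0.16 for Fcer1g and 0.15 for Sirpa. Subtracting the median ratio of all genes gave -0.67 for Fcgr1, -0.57 for Fcgr3, -0.54 for Fcgr2b and -0.16 for Fcer1g. Cells without S100a8 and S100a9 UMIs, also chosen after seeing the data, gave -0.999, -0.64 and -0.85 for Fcgr1, Fcgr3 and Fcgr2b, -0.20 for Fcer1g and 0.68 for Sirpa.
Fcgr4 in monocytes (-1.22) was -2.02 at resolution 0.4, -1.73 with 20 PCs, -1.46 with marker gates, -1.37 with the mean of per-cell CPM, -1.38 without S100a8 and S100a9 UMIs and -1.99 without the Ccl2-positive cluster, and in nonclassical monocytes it was -1.72 with the gate free of Ly6c2. The cause was not tested, except that resolution 0.4, 20 PCs and the last monocyte setting change which cells enter. The Fcgr2b share in monocytes was 26.0% without mixed cells (library labelled WT), 27.3% with marker gates (library labelled KO), and 24.2% and 24.4% as a mean over cells with 5 UMIs, and in macrophages it was 25.0% and 28.6% with the clusters at the same weight, an alternative chosen after seeing the data.
Counts of all genes past the fold shrink or grow by construction. At a fold of 2 they were 143 lower and 83 higher in macrophages, 98 and 31 in monocytes, 95 and 21 in DCs, 32 and 14 in NK cells, and 127 and 75 in T cells. At 500 UMIs they were 187 and 116, 89 and 53, 76 and 26, 22 and 10, and 161 and 87 in the same order. At 50 UMIs the higher counts were 945, 354, 313, 265 and 581, and the lower counts 584 in DCs and 252 in NK cells. Depth limits the 4 receptors in pDCs and mature DCs, where a library held at most 18 UMIs of any of them.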
